A study of Homo sapiens with 6 samples.

Results

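The genes of the cytosolic ribosomal proteins were followed in MDA-MB-231 cells, a human triple-negative breast cancer line, after depletion of the zinc finger transcription factor ZNF148. Members were chosen by symbol alone: every gene of the deposited table named as an RPL or RPS protein, a stalk protein (RPLP) or RPSA, with S6 kinases and pseudogenes left out. This gave 85 genes of 22421, made from 92 rows. They comprised 43 large-subunit and 31 small-subunit genes, 3 stalk genes and 8 paralogs, such as RPL22L1, that resemble a core member. The cells carried either a short hairpin against firefly luciferase in the LKO vector (labelled shControl, here shCtr) or a hairpin against ZNF148 in the same system (labelled shZnf148, here shZNF148), with 3 samples in each group. All 6 samples were transduced for 48 h and then selected for 24 h in 0.5 µg/ml puromycin. The knockdown used 1 hairpin sequence, so an effect of ZNF148 loss and an effect particular to that hairpin cannot be told apart. The labels do not say whether the samples are separate cultures, and p-values therefore measure only the spread between these samples.

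A cytosolic ribosome holds a copy of nearly every ribosomal protein, and the proteins assemble with ribosomal RNA in the nucleolus into a small subunit, which reads the mRNA, and a large subunit, which forms the peptide bond. Their mRNAs are among the most abundant of a growing cell. Most begin with a C followed by a run of pyrimidines, the 5′ terminal oligopyrimidine (TOP) motif, through which mTORC1 and the RNA-binding protein LARP1 control their translation. MYC is a known activator of many of them.

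The transcript start is shown for 7 members that fell and have a single RefSeq entry, and for 3 that did not fall (RPL35, RPL41 and RPS29), because the TOP motif lies there. Each line holds 30 bases of GRCh38.p14, of which 10 precede the annotated start, in the direction of transcription. Capitals mark the longest run of a C and at least 4 following pyrimidines in the window.
RPL29, chr3:51995876-51995905, minus strand: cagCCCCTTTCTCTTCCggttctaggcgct
RPL3, chr22:39319604-39319633, minus strand: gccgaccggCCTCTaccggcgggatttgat
RPL35A, chr3:197950180-197950209, plus strand: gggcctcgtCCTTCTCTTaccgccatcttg
RPL37A, chr2:216498834-216498863, plus strand: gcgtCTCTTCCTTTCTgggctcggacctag
RPL4, chr15:66504836-66504865, minus strand: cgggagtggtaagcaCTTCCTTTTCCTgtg
RPS3, chr11:75399508-75399537, plus strand: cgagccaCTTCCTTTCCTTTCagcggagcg
RPS6, chr9:19380217-19380246, minus strand: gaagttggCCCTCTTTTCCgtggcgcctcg
RPL35, chr9:124861938-124861967, minus strand: cgcctaCTTCCTCTTTCCCTCggagcgggc
RPL41, chr12:56116623-56116652, plus strand: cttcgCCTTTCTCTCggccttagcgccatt
RPS29, chr14:49598691-49598720, minus strand: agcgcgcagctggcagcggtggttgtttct

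RefSeq windows of 300 bases (250 before and 50 from the annotated start) were matched by symbol for 68 of the 85 members. A TOP run began exactly at an annotated start in 48 of the 68 (70.6%), against 7.55% of the 8518 tested symbols with a window. Within 10 bases of a start, on the transcribed strand, it was found in 59 of 68 members (86.8%) and in 42.3% of tested symbols. The 44 tested members with a run at the start had a median log2 fold change of −0.16 and the 18 without had −0.20, with 40 and 15 of them negative. CCCTCCC on either strand, a GC-rich element of the kind ZNF148 is known to bind, lay in 8 of 68 member windows (11.8%) and in 39.7% of windows of tested symbols. This motif consists of pyrimidines and can lie inside a TOP run. In genes with a single window the shares were 12.3% and 31.7%. None of the 9 members that fell and have a window held this motif, beside 8 of the 53 other tested members (15.1%). The median GC content of the windows was 52.7% in these 9, 60.3% in the other tested members and 64.9% over tested symbols. The part of GC content in these shares was not tested. These matches describe letters in a window, not occupied sites.

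ZNF148 mRNA, the target of the hairpin, was lower in the labelled knockdown. It was listed at 3.72, 4.36 and 4.30 FPKM (fragments per length of transcript and depth of the library) in the shCtr samples and at 0.914, 0.282 and 0.834 FPKM in the shZNF148 samples. Its log2 fold change on the log2(FPKM + 1) scale, which is used throughout and understates changes of low genes, was −1.63 (SE 0.18, adjusted p = 0.00826, limma with Benjamini-Hochberg adjustment over all 11506 features tested). Without shCtr replicate 1 its adjusted p was 0.0536. The cells carried the genes of a mesenchymal line: VIM lay between 1507 and 1842 FPKM and CD44 between 402 and 606 FPKM, while the oestrogen receptor gene ESR1 was listed at 0 in all 6 samples, and CDH1 did not exceed 0.491 FPKM. The leukocyte and endothelial markers PTPRC, CD3E and PECAM1 did not exceed 0.131 FPKM. EPCAM (at most 11.1 FPKM), ACTA2 (11.7 to 24.6 FPKM) and CD14 (at most 2.01 FPKM) were present at low levels.

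Of the 85 members, 76 reached the mean of 1 FPKM required for testing. Their mean levels ran from 3.62 FPKM for RPS26 to 2365 FPKM for RPL18, with a median of 318 FPKM and 54 members at 100 FPKM or more. RPL8 (2209.7 FPKM) followed RPL18, and RPL41 (5.37 FPKM) and RPL22L1 (8.23 FPKM) followed RPS26. FPKM is a level per length, and its range over the members was 654-fold. Many of these genes have near-identical processed pseudogenes, and how reads that fit several places were counted is not given in the sources used here. The 9 members that were not tested included RPS18 (mean 0.510 FPKM), RPL7 (0.375 FPKM), RPS27 (0.360 FPKM) and RPL21 (0.286 FPKM), all core proteins. In all, 5 members were at 0 in some samples but not in others, and 4 were at 0 in every sample. A low listed value of a member is therefore uncertain. As RNA was taken from bulk cultures, fewer cells of a kind and less RNA per cell cannot be told apart.

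Ribosomal protein mRNAs were slightly lower in the ZNF148-depleted cells. The 76 tested members had a median log2 fold change of −0.19, that is 87.9% of the shCtr level, beside 0.01 over all features tested. A negative log2 fold change was found for 69 of 76, beside 49.1% of all features. After adjustment 12 members fell, 15.8% of the 76, beside 8.69% of all features, and 0 rose, beside 5.92%. At an unadjusted p under 0.05, 32 members were lower and 0 higher, beside 18.1% and 16.2% of all features. At an adjusted p under 0.05 and more than 1.5-fold together, 0 members were lower and 0 higher, beside 3.83% (lower) and 1.94% (higher) of all features. The 95% interval lay within 1.5-fold both ways for 68 members.

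All 3 shZNF148 samples were below all 3 shCtr samples for 41 members, beside 21.3% of all features, and above them for 1, beside 20.1%. Against each gene's shCtr mean on the log2 scale, the median member stood at 0.03, −0.02 and −0.0026 in the shCtr samples. It stood at −0.18, −0.14 and −0.23 in the shZNF148 samples, so each of these 3 samples was below each control. The other tested features had medians between −0.0033 and 0.0125 in the 6 samples. Members also spread more in the depleted cells, with a median SD over the 3 samples of 0.12 on the log2 scale against 0.06 in shCtr. This spread was not computed for other features, so it is not shown to be particular to the members. As a share of all summed FPKM, the members took 9.16%, 8.81% and 8.97% in shCtr and 8.34%, 8.41% and 8.14% in shZNF148, a difference of −0.683 percentage points. Summed FPKM was itself lower in the shZNF148 samples (469594 to 488173) than in the shCtr samples (497730 to 507312), and the part of this in the members' result was not tested.

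**Figure D1:**
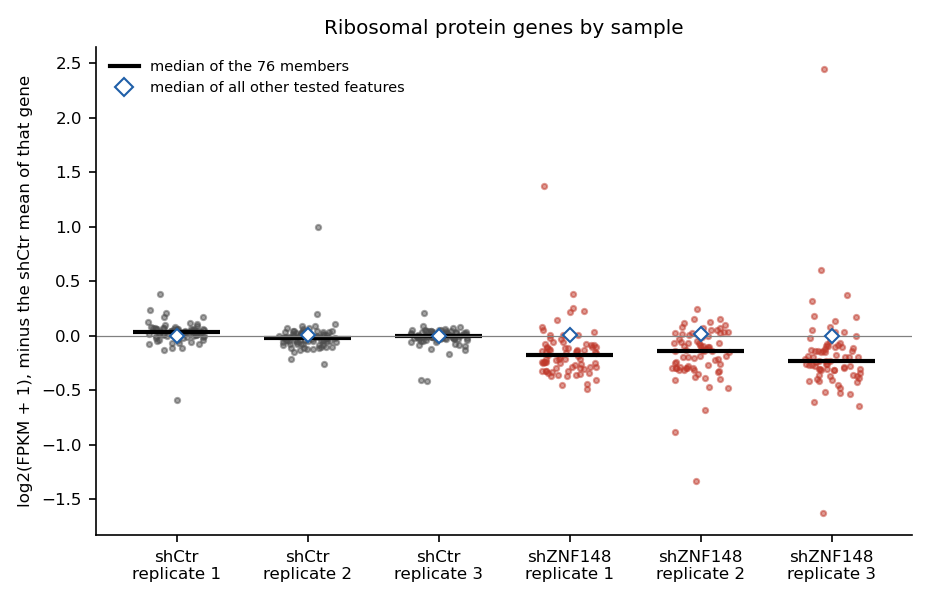
Each point is 1 of the 76 tested ribosomal protein genes in 1 sample, as log2(FPKM + 1) minus the mean of that gene over the 3 shCtr samples (vertical axis). Black bars are the medians of the members, at −0.18, −0.14 and −0.23 in the shZNF148 samples. Open diamonds, the medians of the other tested features, stay near 0 in all 6 samples.

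The calls rested on all 3 control samples. Leaving out shCtr replicate 1, 2 or 3 left 0 members lower at an adjusted p under 0.05 by limma in each case. Over all features 31, 275 and 62 were lower in these fits. At an unadjusted p under 0.05 the members lower numbered 20, 29 and 22 of 76, beside 13.6%, 15.3% and 13.8% of all features. Without shZNF148 replicate 1 there were 3 members lower at an adjusted p under 0.05 (3.95%), beside 3.53% of all features. Without replicate 2 there were 16 (21.1%, beside 9.92%) and without replicate 3 there were 8 of 76, beside 6.41%. The count of members with a negative log2 fold change stayed between 65 and 71 over these 6 fits. RPL15, RPL3 and RPL37 passed in 3 of them, RPL29, RPL37A, RPL8 and RPS6 in 2, RPL35A, RPL6, RPL4 and RPS3 in 1, and RPL5 in 0.

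Proteins of the large subunit made up 10 of the 12 members that fell. These 10 were 24.4% of the 41 tested large-subunit genes, and 7.14% of the 28 tested small-subunit genes fell, beside 8.69% of all features. The median was −0.22 on the log2 scale over the 41 and −0.14 over the 28. Of them 38 and 25, respectively, were negative. The difference between the subunits was not tested. After quantile normalization, which gives all samples the same distribution of values, these medians were −0.11 and −0.02, with 34 of 41 and 17 of 28 negative. Under it 5 of 41 large-subunit and 0 of 28 small-subunit genes were lower, beside 7.64% of all features. Large-subunit and stalk genes together supplied 62.5%, 63.8% and 63.7% of the members' FPKM in shCtr. In shZNF148 they supplied 63.1%, 62.4% and 61.9%, so the sample groups overlapped in this share.

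RPL15 and RPL3 fell most among the members that passed. RPL15, a large-subunit protein mutated in some cases of Diamond-Blackfan anaemia, was at 159, 167 and 163 FPKM in shCtr and at 126, 101 and 121 FPKM in shZNF148. Its mean was 71.2% of the shCtr mean (log2 fold change −0.49, SE 0.09, adjusted p = 0.0215). RPL3, which reaches into the peptidyl transferase centre, was at 429, 432 and 425 FPKM in shCtr. It was at 341, 308 and 296 FPKM in shZNF148 (log2 fold change −0.45, SE 0.07, adjusted p = 0.0155), or 73.5% of control. The 3 control values of RPL3 had an SD of 3.25 FPKM and the depleted values an SD of 23.1 FPKM. For RPL15 the SDs were 4.38 FPKM in shCtr and 12.9 FPKM in shZNF148. In both genes no depleted sample reached a control sample, which adds no support beyond the test that picked them.

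Other large-subunit genes fell by less. RPL29, a basic protein particular to eukaryotes, was at 307, 284 and 293 FPKM in shCtr and at 241, 229.8 and 188 FPKM in shZNF148 (log2 fold change −0.43, adjusted p = 0.0383). The zinc-binding RPL37A was at 1539, 1564 and 1475 FPKM and then at 1250, 1223 and 1064 FPKM (log2 fold change −0.38, adjusted p = 0.0314). RPL8, a core protein near the peptidyl transferase centre, was at 2529.5, 2388 and 2488 FPKM and then at 1937, 2048 and 1868 FPKM (log2 fold change −0.34, adjusted p = 0.0275). In these genes too no depleted sample reached a control sample. RPL37 (log2 fold change −0.33), RPL35A (−0.33), RPL6 (−0.27), RPL4 (−0.27) and RPL5 (−0.25) had adjusted p-values between 0.0205 and 0.0463. RPL4 lines the tunnel through which the nascent chain leaves the ribosome. Its values of 206, 215 and 207 FPKM went to 179, 167 and 172 FPKM. Just beyond the threshold stood RPL10A (−0.27, adjusted p = 0.0506), RPL13A (−0.35, adjusted p = 0.0534) and RPL19 (−0.20, adjusted p = 0.0548), each without overlap between the groups.

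**Figure D2:**
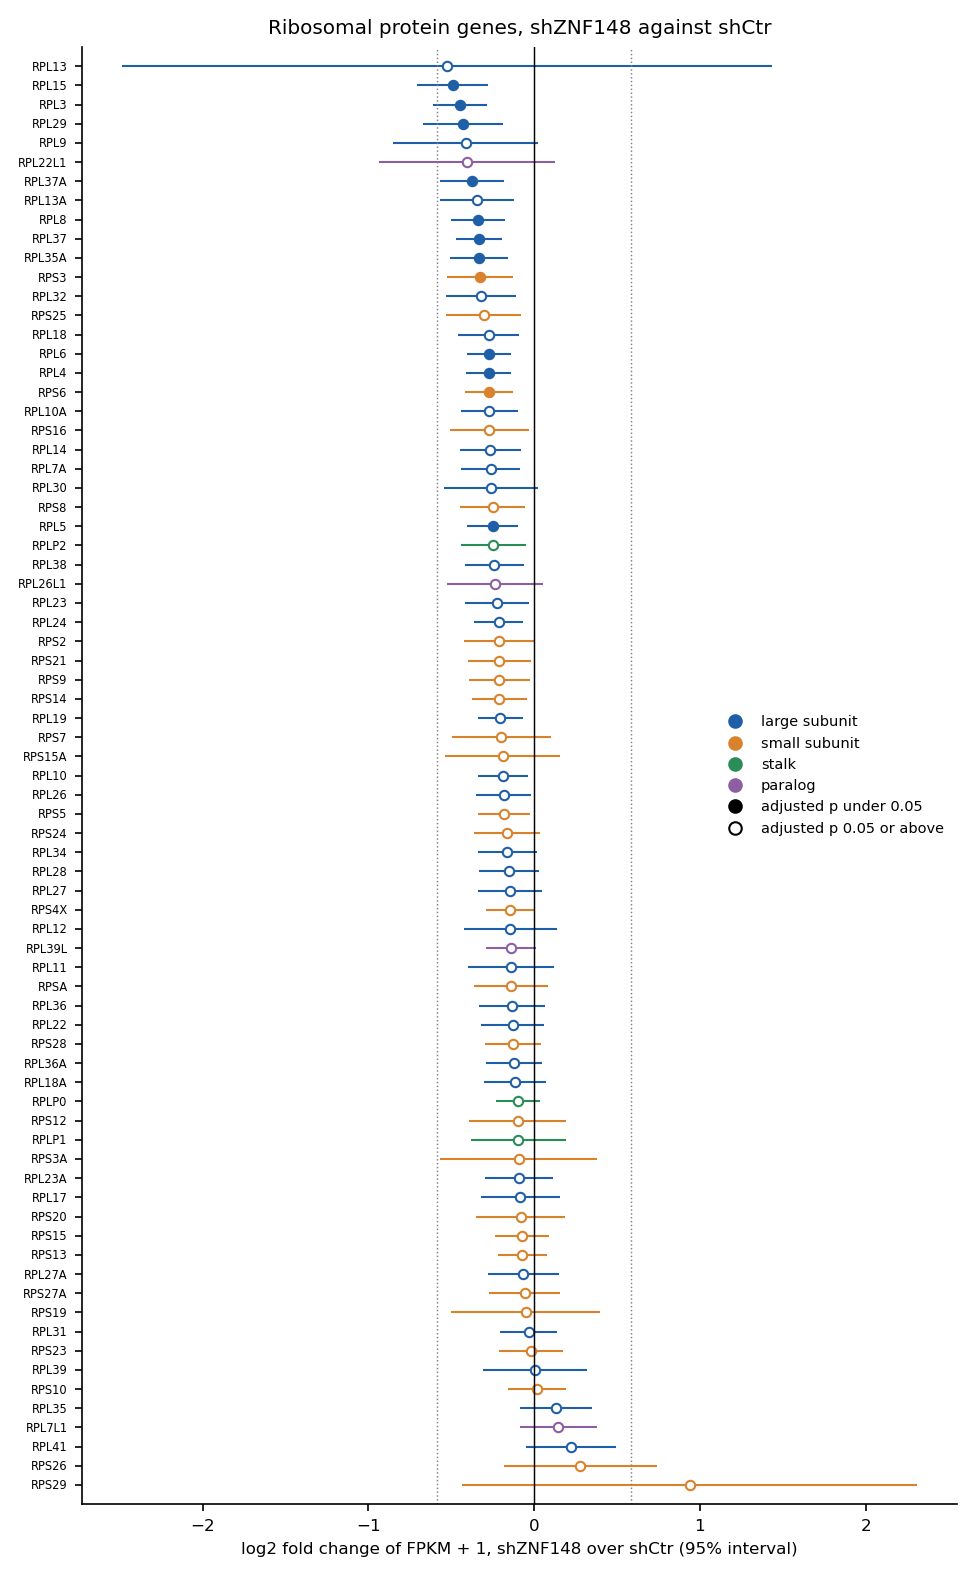
Log2 fold changes (horizontal axis, shZNF148 over shCtr on the log2(FPKM + 1) scale) of 75 of the 76 tested members with 95% intervals, coloured by subunit, with filled points for the 12 at an adjusted p under 0.05. Dotted lines mark 1.5-fold. Most points lie left of 0 and inside the dotted lines, and RPL13 and RPS29 have the widest intervals.

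In the small subunit, RPS3 and RPS6 fell. RPS3, which sits where mRNA enters the ribosome, was at 739, 731 and 741 FPKM in shCtr and at 588, 649 and 529 FPKM in shZNF148, or 79.9% of control (log2 fold change −0.33, SE 0.08, adjusted p = 0.0465). RPS6, the substrate of the S6 kinases, was at 1569, 1526 and 1483 FPKM in shCtr. In shZNF148 it was at 1238, 1253 and 1299.6 FPKM (log2 fold change −0.27, SE 0.06, adjusted p = 0.0349), or 82.8% of control. Both pairs of groups were separate. RPSA, the laminin receptor precursor, was at 25.6, 23.7 and 24.0 FPKM and then at 22.9, 24.2 and 19.4 FPKM, overlapping between groups (log2 fold change −0.14, adjusted p = 0.34). RPS27A, made as a fusion with ubiquitin and read here from a row shared with a microRNA gene, had a log2 fold change of −0.06 (adjusted p = 0.68).

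RPS19, the gene most often mutated in Diamond-Blackfan anaemia, varied more within shCtr than between groups. It was at 2399.6, 1586 and 1632 FPKM in shCtr and at 1844, 2043 and 1483 FPKM in shZNF148 (log2 fold change −0.05, 95% interval −0.50 to 0.40, adjusted p = 0.87).

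The acidic stalk, which recruits the elongation factors, did not pass. RPLP2 came closest, at 620.2, 529.8 and 574 FPKM in shCtr and 467, 465 and 519 FPKM in shZNF148 (log2 fold change −0.25, adjusted p = 0.0867). RPLP0, the protein that anchors the stalk and whose mRNA often serves as a reference in quantitative PCR, was at 339.5, 324 and 341 FPKM in shCtr. It was at 306, 312 and 319 FPKM in shZNF148, 93.3% of control without overlap of the groups (log2 fold change −0.10, adjusted p = 0.25). RPLP1 overlapped between the groups (−0.10, adjusted p = 0.61).

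RPL5 and RPL11 bind the ubiquitin ligase MDM2 when ribosome assembly is disturbed. RPL5 was at 606, 606 and 617 FPKM in shCtr and at 547, 495 and 496 FPKM in shZNF148 (log2 fold change −0.25, adjusted p = 0.0463). RPL11 was at 1383, 1225 and 1424 FPKM and then at 1073, 1372 and 1229 FPKM, overlapping between the groups (−0.14, adjusted p = 0.41). GADD45A, a gene induced by cell stress, fell from 64.7, 80.3 and 63.6 FPKM to 34.3, 46.1 and 47.5 FPKM (log2 fold change −0.70, adjusted p = 0.0298). It passed in 2 of the 6 fits that left out 1 sample, those without shZNF148 replicate 2 or 3. CDKN1A, a cell cycle inhibitor (−0.08), and MDM2 (−0.03) had adjusted p-values of 0.74 and 0.85.

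RPL10, which joins the large subunit last before it becomes active, had a log2 fold change of −0.19 (adjusted p = 0.0876) in a row shared with a small nucleolar RNA. RPL38, known for its role in the translation of Hox mRNAs, had −0.24 (adjusted p = 0.0734).

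At the other end of the order, 5 members had the largest log2 fold changes, and none of them passed. RPS29 was at 91.8, 103 and 95.9 FPKM in shCtr and at 113, 108 and 530 FPKM in shZNF148. Replicate 3 alone stood 5.19-fold above the mean of the other 5 samples, and the log2 fold change of 0.94 (adjusted p = 0.29) was 0.19 without it. RPS26 (0.28, adjusted p = 0.35), RPL41, the smallest ribosomal protein (0.22, adjusted p = 0.22), and the paralog RPL7L1 (0.15, adjusted p = 0.33) overlapped between the groups. RPL35, a protein at the mouth of the exit tunnel, was at 1936, 1758 and 1898 FPKM in shCtr and at 1831, 2213 and 2098 FPKM in shZNF148 (0.13, 95% interval −0.08 to 0.35, adjusted p = 0.35). Without shZNF148 replicate 2, RPS26 passed as the sole member that rose (0.49, adjusted p = 0.0458, with adjusted p-values over all its alternatives from 0.0458 to 0.68).

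RPL13 had the most negative log2 fold change of all members and no stable level. It was at 101, 305 and 114 FPKM in shCtr and at 396, 59.8 and 48.6 FPKM in shZNF148, a range of 8.14-fold (log2 fold change −0.53, SE 0.83, adjusted p = 0.68). The row it was read from also names the small nucleolar RNA SNORD68. Without shZNF148 replicate 1 its log2 fold change was −1.48, and without replicate 3 it was 0.02. RPL9 followed among the members that did not pass (−0.41, adjusted p = 0.16), at 7.02 to 13.1 FPKM with overlap between the groups. The members' share of summed FPKM without RPL13 and RPS29 was 8.93% in shCtr and 8.21% in shZNF148, so the difference in that share was present without them.

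**Figure D3:**
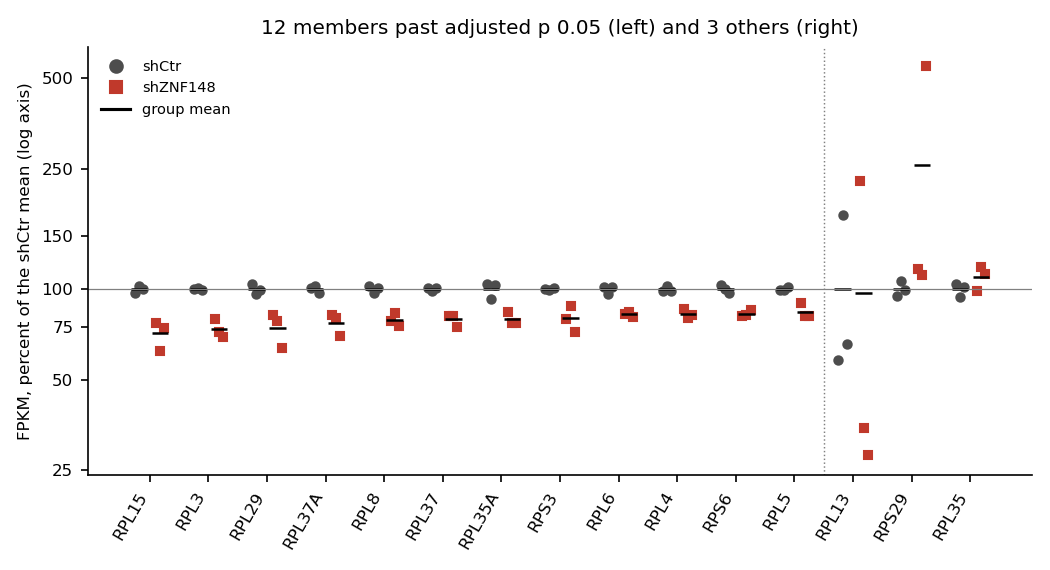
FPKM of each sample as a percent of the gene's shCtr mean (vertical log axis), for the 12 members that fell and, right of the dotted line, RPL13, RPS29 and RPL35. Circles are shCtr samples, squares are shZNF148 samples and bars are group means. In each of the 12 genes the squares lie below all circles, while single samples dominate RPL13 and RPS29.

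Of the 8 paralogs 4 were tested, and none passed. RPL22L1, which can replace RPL22, was at 8.84, 9.63 and 9.58 FPKM in shCtr and at 6.78, 4.62 and 9.91 FPKM in shZNF148 (log2 fold change −0.40, adjusted p = 0.25). RPL22 was at 27.7, 27.7 and 28.5 FPKM and then at 24.7, 28.3 and 23.7 FPKM (−0.13, adjusted p = 0.29). Both genes overlapped between the groups. RPL26L1 had a mean of 17.1 FPKM in shCtr (−0.24, adjusted p = 0.22) beside 945 FPKM for RPL26 (−0.18, adjusted p = 0.12). RPL39L, a paralog best known from testis, had a mean of 61.7 FPKM in shCtr and 56.0 FPKM in shZNF148 (−0.14, adjusted p = 0.17), beside 92.2 and 92.9 FPKM for RPL39 (0.0035, adjusted p = 0.99). RPL7L1 was listed at a mean of 82.3 FPKM in shCtr, above its partner RPL7, which was listed at 0.572 FPKM and was not tested. RPL3L, typical of muscle, and RPL10L, typical of testis, were listed at 0 in every sample, and the Y-linked copies of RPS4X were not tested. RPS4X itself had −0.15 (adjusted p = 0.15).

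The members are among the most abundant mRNAs, and other abundant mRNAs had negative medians too. Between 100 and 300 FPKM, 14 members had a median log2 fold change of −0.27 and 587 other features −0.05. Between 300 and 1000 FPKM, 26 members had −0.21 and 141 other features −0.07. At 1000 FPKM and above, 14 members had −0.16 and 33 other features had −0.23, so that in this highest class the members' median was not the lower of the pair. These other features included genes read beside the members below, namely GNB2L1, EIF3E, VIM, LGALS1 and GAS5. Quantile normalization moved the members' median to −0.09, with 56 of 76 negative beside 46.5% of all features. It left 5 members lower, RPL15, RPL3, RPL37, RPL37A and RPL6. These were 6.58% of the members, beside 7.64% of all features, so under this scaling the members were not called lower more often than other features. It moved the median of the highest class to −0.02, beside −0.04 for the other features in it. Between 100 and 300 FPKM the members then had −0.20, beside 0.01 for other features. Between 300 and 1000 FPKM they had −0.11, beside 0.01. The members are short, with a median canonical transcript of 848 bases beside 3242 for tested features. After a correction for transcript length and GC content their median was −0.15, with 13 lower (17.1%, beside 9.65% of all features).

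**Figure D4:**
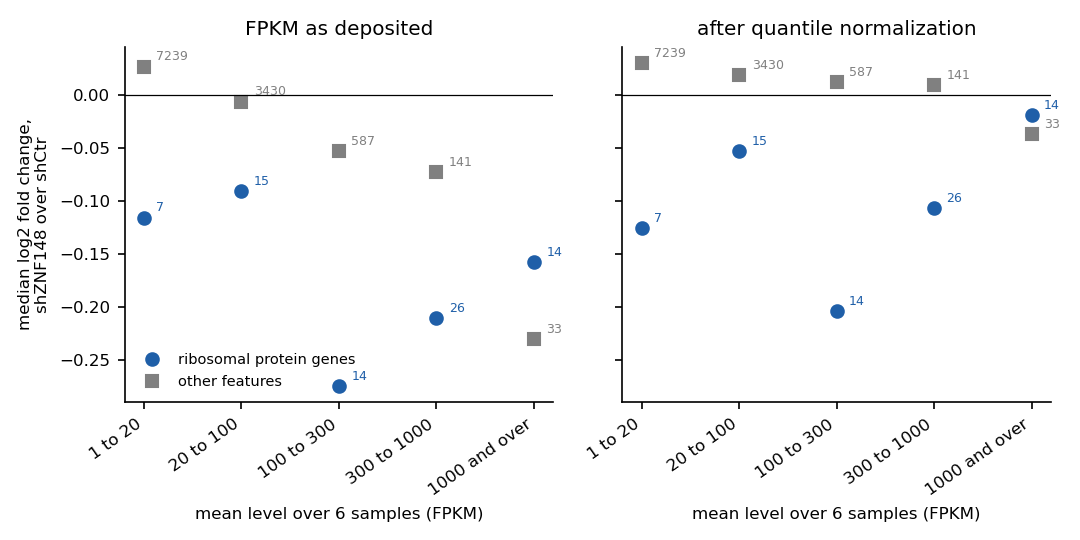
Median log2 fold change (vertical axis) of the tested ribosomal protein genes (circles) and of all other tested features (squares) in 5 classes of mean FPKM (horizontal axis), with the number of genes beside each point. In the deposited FPKM (left) and after quantile normalization (right), the circles lie below the squares except at 1000 FPKM and over.

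Genes related to the ribosome were read beside the members. Of 5 ribosomal components whose names the symbol rule does not reach, GNB2L1, the older symbol of the scaffold protein RACK1, fell from 1166, 1125 and 1124 FPKM to 963, 923 and 909 FPKM (log2 fold change −0.29, adjusted p = 0.0288), and passed in 2 of the 6 fits with 1 sample left out. After quantile normalization it had −0.17 (adjusted p = 0.11). FAU, which encodes a ribosomal protein fused to a ubiquitin-like part, had −0.07 (adjusted p = 0.55). RPS27L (−0.24, adjusted p = 0.27) and RPL36AL (−0.17, adjusted p = 0.19) did not pass either.

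All 17 other mRNAs listed as carrying the TOP motif had negative log2 fold changes (median −0.23), beside 49.1% of all features. Of these 17, 12 had a RefSeq window, and in 9 of the 12 (75%) a TOP run began at an annotated start. Of the 17 mRNAs, 5 fell (29.4%, beside 8.69%). After quantile normalization 15 of 17 were negative (median −0.14, beside 46.5% of all features) and 3 were lower. The elongation factors EEF1B2 (−0.39, adjusted p = 0.019) and EEF2 (−0.25, adjusted p = 0.0412), the initiation factors EIF3F (−0.31, adjusted p = 0.0397) and EIF4B (−0.66, adjusted p = 0.013) and the nascent chain factor BTF3 (−0.30, adjusted p = 0.0221) made up this group. Under quantile normalization EEF2 (−0.06, adjusted p = 0.48) and EIF3F (−0.25, adjusted p = 0.0693) did not pass. EIF4B also passed the fold threshold, from 28.2, 30.1 and 28.8 FPKM to 19.1, 15.7 and 19.4 FPKM. With 1 sample left out, EIF4B passed in 4 of 6 fits (not without shCtr replicate 1 or 3), EEF1B2, EIF3F and BTF3 in 2, and EEF2 in 1. The row of GAS5, a host gene of small nucleolar RNAs joined with them in the table, was uneven, at 840.2 to 2213 FPKM in shCtr and 36.7 to 744 FPKM in shZNF148 (adjusted p = 0.17). VIM belongs to this list as well as to the 6 markers expected to be expressed in the line. All 6 had negative log2 fold changes (median −0.26), and 3 fell, CD44, AXL and LGALS1 (50%, beside 8.69% of all features). After quantile normalization all 6 were still negative (median −0.16), and 0 of 6 were lower, beside 7.64% of all features. CD44, AXL and LGALS1 are themselves abundant, the lowest of their values being 276 FPKM.

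Among 14 regulators of TOP mRNAs, EIF4EBP2, which holds back the cap-binding protein EIF4E, was the sole gene that passed and rose. It was at 24.2, 25.5 and 26.6 FPKM in shCtr and at 42.3, 50.3 and 42.6 FPKM in shZNF148 (log2 fold change 0.80, SE 0.09, adjusted p = 0.00826), and without shCtr replicate 1 its adjusted p was 0.0551 (0.00377 to 0.0551 over all alternatives). Its relative EIF4EBP1 had −0.50 (adjusted p = 0.0864), LARP1 had 0.0098 (adjusted p = 0.92) and MTOR had 0.03 (adjusted p = 0.83). None of 11 chaperones and importers of ribosomal proteins passed. GRWD1, a chaperone of RPL3, had 0.40 (adjusted p = 0.0676) with no overlap of the groups.

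MYC fell from 92.8, 79.4 and 85.3 FPKM to 69.8, 65.7 and 71.3 FPKM (log2 fold change −0.31, adjusted p = 0.0412), and its partner MAX rose from 32.96, 33.8 and 34.8 FPKM to 41.3, 41.2 and 40.1 FPKM (0.26, adjusted p = 0.0312). With 1 sample left out, MYC passed in 0 of the 6 fits and MAX in 1, that without shZNF148 replicate 2. Quantile normalization gave MYC −0.24 (adjusted p = 0.0772). GABPA (−0.09), SP1 (−0.16), YY1 (0.08) and ZNF281 (−0.11), other factors known at ribosomal protein promoters or related to ZNF148, did not pass. For the 73 tested genes of the mitochondrial ribosome, a separate particle with its own proteins, the median was −0.01 on the log2 scale. Of them 41 were negative (56.2%, beside 49.1% of all features), 6 fell (8.22%, beside 8.69%) and 2 rose. The difference between them and the cytosolic genes was not tested.

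**Figure D5:**
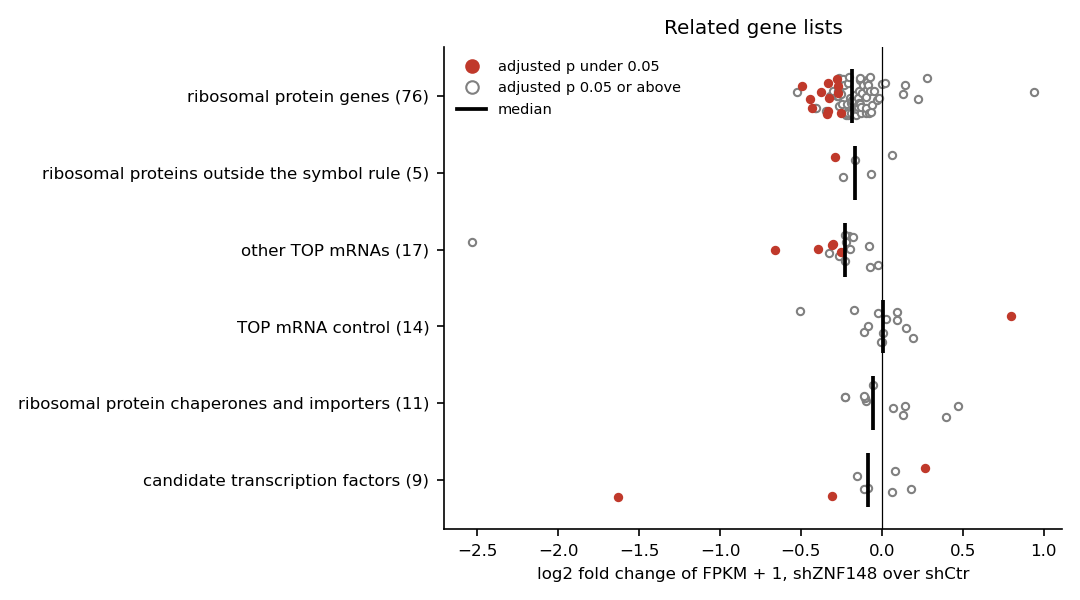
Log2 fold changes (horizontal axis, shZNF148 over shCtr) of the tested members and of 5 related lists, with the number of tested genes in brackets, medians as black bars and filled points at an adjusted p under 0.05. All 17 other TOP mRNAs lie left of 0, as do 69 of 76 members, and EIF4EBP2 is the filled point farthest to the right.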

How the data were processed

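FPKM values of the 6 samples came from 1 table made by the authors. The submitters' processing notes name bcl2fastq 2.17.1.14, TopHat2 2.0.14, Cufflinks 2.2.1, Cuffnorm 2.2.1 and the builds hg18 and hg19, whereas the paper's methods name Salmon on GRCh38 and DESeq2. The table has no coordinates, so none are given for genes. FPKM holds no read counts. The relative depth read from the steps between low values was 0.806 to 1.13 of shCtr replicate 1, and the absolute depth is unknown.

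Rows with the same member symbol were summed, also where a row joins several symbols (7 members). Features with a mean of at least 1 FPKM (11506) were fitted as log2(FPKM + 1) by limma 3.58.1 (R 4.3.3). Condition was the sole term, variances followed a trend on the mean, and the Benjamini-Hochberg adjustment ran over all of them. Fell and rose mean an adjusted p under 0.05, and the fold threshold was 1.5. Exact two-sided permutation tests of single genes cannot go below 0.1 with 3 samples against 3. The fit was tested on simulated data. Length and GC came from GENCODE canonical transcripts (97.4% of features matched), and start windows from RefSeq.

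Named were members past the test, the 5 largest and 5 smallest log2 fold changes, the 3 highest and 3 lowest levels, members of known special function, paralogs, ribosomal proteins outside the symbol rule, ZNF148 and MYC. RPL10A, RPL13A, RPL19 and genes of the related lists were named after their values were seen. Members and lists were chosen with earlier results of these data known. A few genes under this rule are not reported here. Other filters, pseudocounts, scalings, row rules, a replicate block and leaving out each sample were tried.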

Additional observations from a re-analysis of the deposited data

How the results depend on the processing

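At an adjusted p under 0.05, 12 members were lower in the main fit (15.8%, beside 8.69% of all features). Without a filter on low values 5 were lower (6.17%, beside 4.49%), and after quantile normalization 5 (6.58%, beside 7.64%). A replicate block left 1 (1.32%, beside 3.02%), and that block with a length and GC correction left 2 (2.63%, beside 3.84%). In the 6 fits with 1 sample left out the count was 0 to 16. Members higher numbered 0 to 1 in those 6 fits. Under the other settings 9 to 15 were lower (11.8% to 20%, beside 7.83% to 10.2% of all features). The members' median log2 fold change of −0.19 was −0.092 after quantile normalization and lay between −0.20 and −0.15 otherwise. ZNF148 kept its call except without shCtr replicate 1, and its log2 fold change was −1.74 to −1.45 with 1 sample left out, −2.57 with a pseudocount of 0.1 FPKM and −0.69 with 5 FPKM.

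Samples that share a replicate number had correlations of deviations from their group means of 0.01, −0.10 and 0.02. Pairs of different number had a mean of 0.0099. With 3 samples in each group this cannot show whether samples of the same number were handled together. The 1 member lower with a replicate block was RPL3 (1.32% of the members), and 347 features were lower in place of 1000 (3.02%).

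Signs turned for some members that had not passed. Quantile normalization gave RPL11 0.022, RPL18 0.0059, RPLP1 0.0023, RPS19 0.14, RPS27A 0.011 and RPS4X 0.017. RPL39 was −0.00102 with median-ratio scaling and −0.11 to 0.12 with 1 sample left out. Leaving out 1 sample gave ranges of −1.48 to 0.021 for RPL13, −0.17 to 0.036 for RPLP1, −0.16 to 0.14 for RPS19 and −0.12 to 0.027 for RPS27A. The causes were not tested. The length and GC correction was chosen after seeing the data. Depth limits the low members most.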

Other observations

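Rows of ribosomal protein pseudogenes held values beside those of the members. RPSAP58 was at 56.5 to 70.5 FPKM, above RPSA at 19.4 to 25.6 FPKM in each sample. RPL19P12 was at 67.2 to 87.9 FPKM and RPL23P8 at 22.7 to 53.1 FPKM, with RPL19 and RPL23 at a mean of 853 and 878 FPKM in shCtr. The 3 shZNF148 samples of RPL19P12 (68.6, 73.9 and 67.2 FPKM) were below its shCtr samples (87.9, 85.0 and 79.5 FPKM). How reads were shared between such copies is not given in the sources used here.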
